A study of Mus musculus with 219 samples.

Results

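The Zscan4 gene cluster was followed as the 5 copies that have a row of their own under the symbols Zscan4b, Zscan4c, Zscan4d, Zscan4e and Zscan4f, out of 32285 genes counted. They were found by symbol, and both the level of each copy and the sum of the 5 were analysed. Oocytes of hormonally primed B6C3F1 females received a single CD1 sperm head by intracytoplasmic injection (ICSI), so that every embryo had the genotype B6C3F1xCD1 and no sequenced group was fertilized without injection. The sperm head was deposited opposite the meiotic spindle (contralateral), beside it (ipsilateral, written isolateral in the labels) or midway between (equatorial). On the next day 2-cell embryos were either split, with each sister blastomere lysed and sequenced alone, or bisected and cultured so that each blastomere formed a twin blastocyst, while other embryos grew intact to the blastocyst stage. After the study's limit on detected genes, 55 sister pairs were kept, 21 contralateral, 21 ipsilateral and 13 equatorial. The blastocysts were 19 twin pairs (6, 7 and 6 in the same order) and 31 intact embryos (11, 8 and 12). The labels number the embryos but give no litter, oocyte donor or injection session. The p-values between groups below therefore measure the spread between embryos only. Those of a later test of embryos within groups measure the spread between sisters.

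Full-length Zscan4 proteins carry a SCAN domain and zinc fingers. They are made in a brief wave when the embryonic genome switches on at the 2-cell stage. In embryonic stem cells they appear in a small, changing fraction of cells that resemble 2-cell embryos, and they are known for a part in lengthening telomeres. The transcription factor Dux and the chromatin proteins Dppa2 and Dppa4 activate the genes, and several repressors of chromatin keep them silent outside this window.

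The copies lie in tandem on mouse chromosome 7 (GRCm38, annotation GENCODE M21), from 10900740 to 11402318, a span of 501579 bases. Zscan4b (ENSMUSG00000095339) occupies 10900740 to 10905050 on the minus strand. Zscan4c (ENSMUSG00000054272) occupies 11005745 to 11010547 on the plus strand, and Zscan4d (ENSMUSG00000090714) 11161374 to 11166159 on the minus strand. Zscan4e (ENSMUSG00000095936) occupies 11306378 to 11310682 on the minus strand and is a pseudogene in RefSeq. Zscan4f (ENSMUSG00000070828) occupies 11397915 to 11402318 on the plus strand. The cluster also holds Zscan4-ps1, Zscan4-ps2 and Zscan4-ps3, which were counted but are no members, and Zscan4a, which has no row.

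A read that fits several copies equally well has no certain source, so the exons were compared in windows of 100 bases. Of the windows of Zscan4d, 70.4% occurred in no other gene. The share was 27.2% in Zscan4c, 23.7% in Zscan4b, 19.4% in Zscan4f and 18.5% in Zscan4e. Zscan4b and Zscan4e had 1328 windows in common, 75.4% of the former's and 75.8% of the latter's. Zscan4c and Zscan4f had 1204 in common, 55.3% and 62.7% of theirs. Zscan4d is therefore the copy measured over most of its own length, while the value of any of the other 4 is uncertain, and the reads were counted without strand.

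Since the copies were compared for moving together, the stretches before their starts are shown, for the 4 copies that the RefSeq promoter table holds (GRCm38.p6); Zscan4e is not among them. Each is written 5′ to 3′ on the strand of its gene and runs from 75 bases before the TATA letters to 20 bases after them. Capitals mark the letters TATAAA, as in a TATA box, and every AATCA, an arm of the palindromic site that Dux binds. TATAAA lies 31 bases before the annotated start in Zscan4b and Zscan4f, 54 in Zscan4c and 65 in Zscan4d. The coordinates are chr7:10905056-10905156 (minus strand) for Zscan4b, chr7:11005616-11005716 (plus strand) for Zscan4c, chr7:11166188-11166288 (minus strand) for Zscan4d and chr7:11397809-11397909 (plus strand) for Zscan4f.
Zscan4b: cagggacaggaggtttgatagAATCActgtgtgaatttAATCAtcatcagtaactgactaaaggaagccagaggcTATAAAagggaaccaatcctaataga
Zscan4c: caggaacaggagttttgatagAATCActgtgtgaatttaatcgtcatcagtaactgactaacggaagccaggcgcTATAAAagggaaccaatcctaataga
Zscan4d: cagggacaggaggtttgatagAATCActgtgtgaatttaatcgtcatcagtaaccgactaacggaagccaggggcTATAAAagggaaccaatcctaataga
Zscan4f: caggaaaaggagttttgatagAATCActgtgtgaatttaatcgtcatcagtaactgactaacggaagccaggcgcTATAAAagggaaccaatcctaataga

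Over these bases the 4 copies were nearly the same. Counted from the 5′ end, Zscan4c and Zscan4f differed at 1 base (C7A), Zscan4c and Zscan4d at 4, and Zscan4b and Zscan4d at 4, while Zscan4b and Zscan4f differed at 7, the most of any pair. The change A43G, from Zscan4b to each of the other 3, takes away the second AATCA. In the whole windows of 300 bases (250 before the start and 50 after it) the longest run common to the 4 copies was 55 bases, which 4 of 32851 promoter windows of the mouse genome held. On either strand, TATAAA occurred in 13.6% of all such windows and AATCA in 37.0%. The window of each of the 4 copies held 2 matches of AATCA, so Zscan4b did not have more than the others over this length. The letters TGCACAC, which Zscan4c protein is known to bind, occurred in 4.4% of all windows and in 0 of these 4.

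Total counts per library were 360474 to 2100561 in the 110 blastomeres (median 1340425), 713410 to 2161062 in the 38 twins (1093478) and 234099 to 1254428 in the intact blastocysts (705837). Depth differed with the ICSI site among blastomeres, with medians of 1297280 counts contralaterally, 1530273 ipsilaterally and 1108741 equatorially, and 12085, 12164 and 11514 detected genes. The mitochondrial share had medians of 1.52%, 1.51% and 1.24%. Oocyte markers, which are maternal RNA in a 2-cell embryo, were present for 6 of 6 genes at the 2-cell stage (3174 to 4870 CPM summed), and trophectoderm markers for 6 of 6 in both kinds of blastocyst (2957 to 6377 CPM). Of 6 cumulus cell markers, 3 exceeded a mean of 1 CPM at the 2-cell stage and 0 were at 0 in every embryo. Their summed CPM was 1.33 to 56.8 in contralateral (median 21.1), 4.59 to 49.8 in ipsilateral (24.4) and 9.29 to 59.4 in equatorial embryos (30.7). Fits with depth terms and with a limit on the mitochondrial share are given below, and the part of cumulus RNA in the results was not tested.

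Zscan4 transcripts were abundant in embryos of all 3 groups at the 2-cell stage and lowest after equatorial ICSI. The paper lists Zscan4 among transcripts of late but not early 2-cell embryos and states that its 110 blastomeres lacked it. The deposited counts differ from that statement. Whether the ICSI groups differed in progress through the 2-cell stage was not tested. CPM, counts scaled to an equal library size, was taken per embryo after adding both sisters. The summed CPM of the 5 copies ran from 47.2 through a median of 313 to 598 in contralateral embryos and from 91.2 through 284 to 565 in ipsilateral ones. In equatorial embryos it ran from 19.9 through 117.4 to 275. The means were 306.3 ± 145.1 (SD, n = 21), 289.5 ± 118.5 (SD, n = 21) and 146.2 ± 87.1 (SD, n = 13), and the contralateral median was 2.67 times and the ipsilateral median 2.42 times the equatorial one. The groups overlapped at their lower ends. All 13 equatorial embryos lay below the median of either polar group, and 13 of 21 contralateral and 11 of 21 ipsilateral embryos lay above the highest equatorial one. Of the 10 embryos with the lowest sums 6 were equatorial, and of the 20 with the highest sums 0 were. A lower CPM of an embryo can mean less transcript in each blastomere or in only some of them, which the sum over sisters cannot tell apart.

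**Figure D1:**
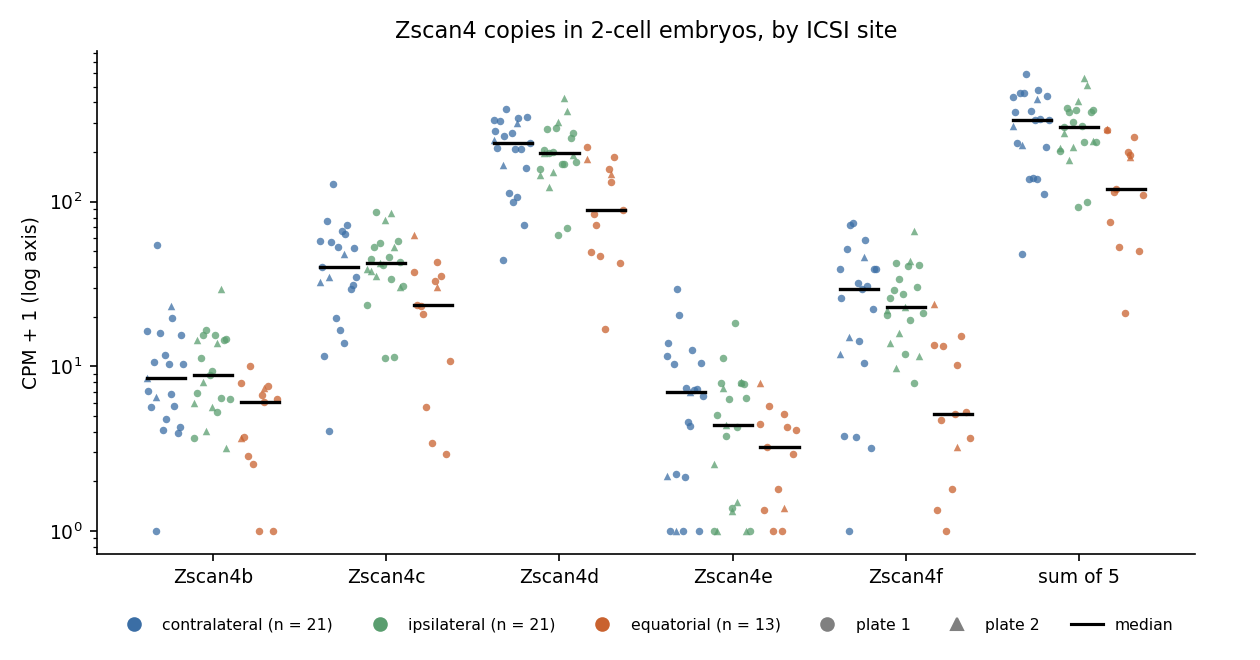
CPM + 1 (log axis) of each Zscan4 copy and of their sum in the 55 embryos at the 2-cell stage, both sisters added, by ICSI site, with circles for plate 1, triangles for plate 2 and a bar at the median. The equatorial median is the lowest for every copy, and the groups overlap for every copy.

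Zscan4d, the copy with the most sequence of its own, made up most of this signal. Its CPM ran from 42.9 through 226 to 363 in contralateral, from 61.4 through 196 to 425 in ipsilateral and from 15.9 through 88.4 to 212 in equatorial embryos. All 13 equatorial embryos were below the contralateral median, and 11 of 21 contralateral and 7 of 21 ipsilateral embryos were above the highest equatorial value. Zscan4f showed the widest gap between medians. Its CPM ran from 0 through 28.3 to 73.3 contralaterally, from 6.92 through 21.99 to 64.96 ipsilaterally and from 0 through 4.14 to 22.97 equatorially. The contralateral median of Zscan4f was 6.83 times and the ipsilateral one 5.32 times the equatorial median, and 8 of 13 equatorial embryos were below the lowest ipsilateral embryo.

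The groups of the other 3 copies overlapped too. Zscan4c ran from 3.06 through 38.9 to 127.5 CPM contralaterally, from 10.2 through 41.3 to 85.2 ipsilaterally and from 1.91 through 22.6 to 61.6 equatorially. Zscan4b ran from 0 through 7.45 to 53.3 CPM, from 2.18 through 7.85 to 28.3 and from 0 through 5.05 to 8.995 in the same order. Zscan4e, the pseudogene in RefSeq, ran from 0 through 5.94 to 28.5 CPM, from 0 through 3.39 to 17.2 and from 0 through 2.22 to 6.89. Embryos without a single count numbered 4, 4 and 2 for Zscan4e, against 0 in any group for Zscan4c and Zscan4d.

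In edgeR's quasi-likelihood test on counts added over sisters, with a term for the plate and p adjusted over 13141 genes, 2 of the 5 copies were called (adjusted p under 0.05), both higher after contralateral than after equatorial ICSI, while 7.12% of all genes tested were called higher in that comparison and 13.2% in either direction. Zscan4f was higher by 2.07 ± 0.50 (log2 fold change ± SE, edgeR adjusted p = 0.00262) and Zscan4d by 1.03 ± 0.27 (adjusted p = 0.00616). The log2 fold changes of the others were 1.37 ± 0.53 for Zscan4b (edgeR adjusted p = 0.0754), 0.89 ± 0.35 for Zscan4c (adjusted p = 0.0769) and 1.31 ± 0.81 for Zscan4e (adjusted p = 0.317). The median over the 5 copies was 1.31, against -0.0001 over all genes tested. By p-value Zscan4f stood at rank 482 and Zscan4d at rank 701 of the genes tested.

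The same 2 copies were called between ipsilateral and equatorial ICSI, where 3.43% of all genes were called higher and 6.65% in either direction. The 13 equatorial embryos serve both comparisons, which are therefore not independent. Zscan4f was higher by 1.86 ± 0.49 (edgeR adjusted p = 0.0123) and Zscan4d by 0.85 ± 0.27 (adjusted p = 0.0415). Zscan4b had 1.15 ± 0.54 (edgeR adjusted p = 0.210), Zscan4c 0.77 ± 0.35 (adjusted p = 0.185) and Zscan4e 0.78 ± 0.78 (adjusted p = 0.653). The median over the copies was 0.852, against 0.0119 over all genes. The calls of this comparison were lost in a fit with depth terms, and depth differed with the ICSI site. With the log2 total count and the detected genes as covariates, 0 of the 5 copies passed in edgeR. At an unadjusted p under 0.05 were 1 of the 5 copies and 1654 of 13141 genes in that fit. Zscan4f had 1.56 ± 0.56 (edgeR adjusted p = 0.187) and Zscan4d 0.59 (adjusted p = 0.424). The number of genes called over the whole table went from 874 to 61. Zscan4d also lost the call on plate 1 alone, with all pairs of the table and with a limit on mitochondrial counts, where its log2 fold change was 0.94, 0.77 and 0.81.

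Between contralateral and ipsilateral ICSI 0 of the 5 copies were called by edgeR or DESeq2, and 0 had an unadjusted p under 0.05 in either. Of the 13141 genes tested 0% were called, with 555 in edgeR and 683 in DESeq2 at an unadjusted p under 0.05, while without the filter on low counts edgeR called 1577 of 24964 genes, again with 0 of the 5 copies. The log2 fold change was 0.18 for Zscan4d, with a 95% interval from -0.29 to 0.64, and 0.12 for Zscan4c, from -0.49 to 0.72. The interval was wider for Zscan4f (0.21, from -0.60 to 1.02), Zscan4b (0.22, from -0.68 to 1.12) and Zscan4e (0.53, from -0.82 to 1.89).

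**Figure D2:**
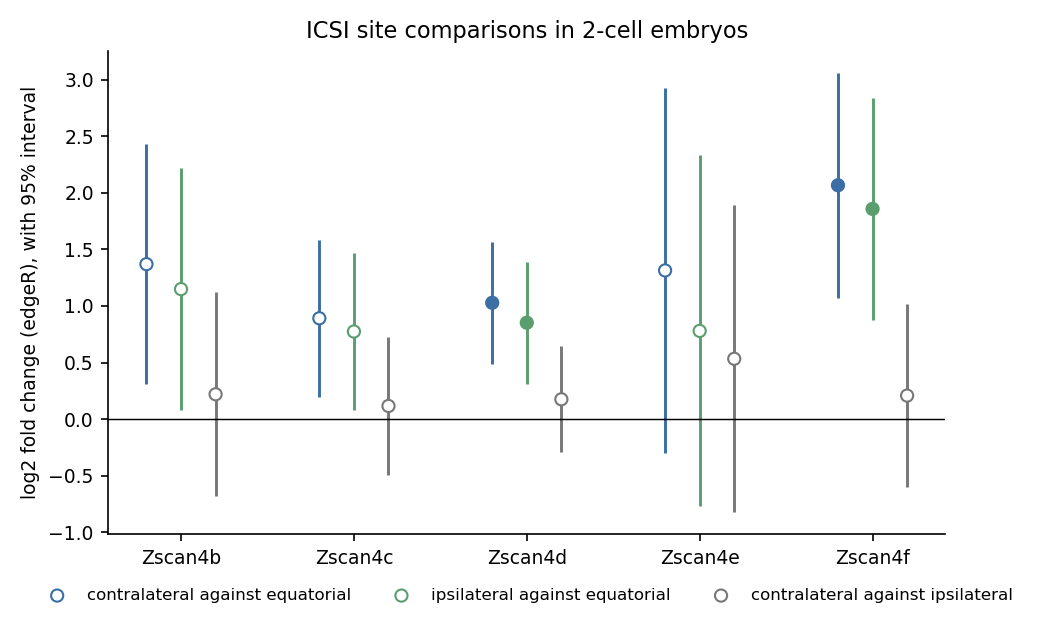
Log2 fold change of each copy between ICSI sites in edgeR (points) with its 95% interval (lines); filled points passed an adjusted p of 0.05. Zscan4d and Zscan4f are filled in both comparisons with the equatorial group, and every interval between the polar groups spans 0.

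Libraries of the 2-cell stage came from 2 plates, with 18, 13 and 11 embryos (contralateral, ipsilateral, equatorial) on plate 1 and 3, 8 and 2 on plate 2. On plate 1 the summed CPM ran from 47.2 through a median of 315.7 to 598 in contralateral, from 91.2 through 285.2 to 371.4 in ipsilateral and from 19.9 through 113.1 to 271.5 in equatorial embryos. On plate 2 the medians were 287.4 in the 3 contralateral and 246.5 in the 8 ipsilateral embryos, and the 2 equatorial embryos had 184.5 and 274.8. The equatorial group had the lowest median on plate 1 and the lowest mean on plate 2, but the 2 equatorial embryos of plate 2 lay within the range of its ipsilateral embryos (177.4 to 564.6). Fitted on plate 1 alone, 3 of the 5 copies were called between contralateral and equatorial ICSI. The log2 fold changes were 2.36 for Zscan4f (edgeR adjusted p = 0.00164), 1.15 for Zscan4d (adjusted p = 0.00769) and 1.15 for Zscan4c (adjusted p = 0.0382). Of 12864 genes tested in that fit, 2176 were called in either direction and 1241 higher, so calls were more frequent over the whole table too.

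Per length, Zscan4d stood highest and Zscan4e lowest in each ICSI group, by mean and by median. In TPM, which divides counts by exonic length before scaling, the mean over the 55 embryos was 268 ± 131.4 (SD) for Zscan4d, 56.04 ± 33.6 for Zscan4c, 36.7 ± 30.02 for Zscan4f, 15.6 ± 14.7 for Zscan4b and 8.56 ± 9.57 for Zscan4e. Among all genes ordered by mean TPM these stood at ranks 697, 3700, 4865, 7584 and 9541. Zscan4d was above Zscan4c in 55 of 55 embryos, so this step exceeded the spread between embryos. Zscan4c was above Zscan4f in 45 of 55, Zscan4f above Zscan4b in 45, and Zscan4b above Zscan4e in 42, so these neighbours in the order overlapped. In equatorial embryos Zscan4f was above Zscan4b in only 8 of 13. Their medians there, 7.38 and 9.47 TPM, were in the reverse of the order in the polar groups. Their equatorial means, 11.8 and 7.87 TPM, were in the same order as in the polar groups. The mean share of the summed CPM was 72.9% ± 7.79 (SD, n = 55) for Zscan4d, 14.7% ± 5.11 for Zscan4c, 7.38% ± 3.8 for Zscan4f, 3.15% ± 2.08 for Zscan4b and 1.88% ± 1.76 for Zscan4e. The share of Zscan4f was 8.83% in contralateral, 8.45% in ipsilateral and 4.00% in equatorial embryos (medians), and ran from 0% to 15.5%, from 4.56% to 13.9% and from 0% to 10.5%. These orders rest on the assignment of reads to copies and on the lengths of the M21 annotation. The share of windows found in no other gene was likewise highest in Zscan4d (70.4%), next in Zscan4c (27.2%) and lowest in Zscan4e (18.5%). TPM divides by the whole exonic length and was not adjusted for this. How far this difference sets the orders and the shares was not tested.

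In single blastomeres, Zscan4d was counted in all 110, with at least 6.70 CPM. Zscan4c was at 0 in 3 of them, Zscan4f in 11, Zscan4b in 19 and Zscan4e in 36. The blastomeres at 0 were spread unevenly: for Zscan4b they were 3 of 42 contralateral, 4 of 42 ipsilateral and 12 of 26 equatorial blastomeres, and for Zscan4f 3, 2 and 6. At a count of 0 a level of up to 3 counts is allowed, which counts sampling error only, and equatorial libraries were the shallowest. Across the 110 blastomeres the copies rose and fell together to varying degrees, with Spearman correlations from 0.348 (Zscan4d and Zscan4e) to 0.788 (Zscan4d and Zscan4f). This is a description over points that share sisters and sites, for copies that share exon sequence. Over the same blastomeres the summed CPM had a correlation of 0.32 with total counts, 0.262 with detected genes and 0.35 with the mitochondrial share. Within contralateral, ipsilateral and equatorial blastomeres it was 0.091, 0.404 and 0.193 with total counts and 0.358, -0.0268 and 0.318 with the mitochondrial share, so the pooled values do not describe each group.

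In most embryos the summed Zscan4 levels of the sisters lay within 2-fold of each other. On the scale of log2(CPM + 1) the median size of the sister difference in the summed CPM was 0.50 in contralateral, 0.52 in ipsilateral and 0.78 in equatorial pairs, with ranges from 0.04 to 1.71, from 0.02 to 1.82 and from 0.12 to 2.70. Blastomeres of different embryos of the same group and plate differed by medians of 0.90, 0.61 and 1.26. The sisters differed by over 2-fold in 3 of 21 contralateral, 4 of 21 ipsilateral and 6 of 13 equatorial pairs.

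A difference of over 4-fold occurred in 3 pairs, which were all equatorial and on plate 1. In embryo 37 the sisters had 130.6 and 19.2 CPM, in embryo 36 they had 49.9 and 7.82, and in embryo 39 they had 20.02 and 102.5. In each of the 3 the difference was largest in Zscan4d in absolute terms, at 80.0 and 17.2 CPM, 38.8 and 6.70, and 20.02 and 86.6. The lower sister held 29, 7 and 24 counts of the 5 copies. In each of the 3 the lower sister was the deeper library, with 1508099, 895007 and 1198672 total counts against 1462473, 360474 and 751041. These embryos are also among the 10 with the lowest sums.

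**Figure D3:**
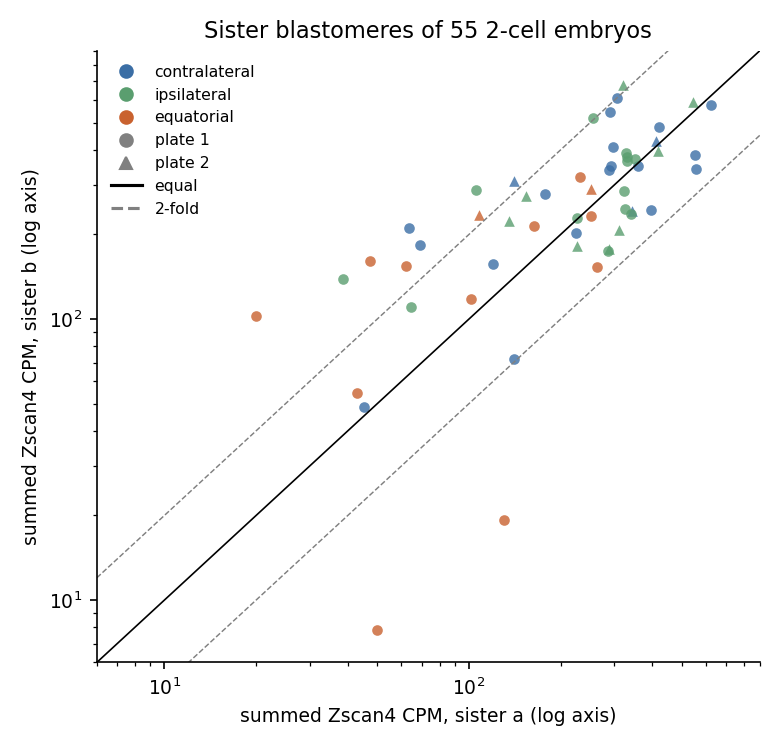
Summed Zscan4 CPM of sister a against sister b (both axes log) for the 55 pairs, coloured by ICSI site, with circles for plate 1 and triangles for plate 2. The solid line marks equal levels and the dashed lines a 2-fold difference; the 3 pairs farthest from the solid line are equatorial.

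Per copy, Zscan4d and Zscan4c had the smallest sister differences over the 55 pairs, with medians of 0.58 and 0.61. The median size for Zscan4d was 0.52 in contralateral, 0.58 in ipsilateral and 0.60 in equatorial pairs. For Zscan4c it was 0.24, 0.61 and 2.01, for Zscan4b 0.81, 1.06 and 2.32, for Zscan4f 0.88, 0.85 and 1.71, and for Zscan4e 0.93, 0.93 and 1.92. The equatorial median was thus the highest for each copy, by little for Zscan4d. Sisters with 0 counts on one side only were frequent in the low copies, in 1 of 21 contralateral, 4 of 21 ipsilateral and 8 of 13 equatorial pairs for Zscan4b and in 4, 5 and 7 pairs for Zscan4e. Equatorial blastomeres of different embryos differed by a median of 1.87 in Zscan4b and 1.26 in Zscan4e, less than the equatorial sisters did. In limma on these sizes, adjusted over 11712 genes, 0 of the 5 copies passed in any of the 3 comparisons, where 0.12% of all genes passed for contralateral against equatorial pairs, 0.273% for ipsilateral against equatorial pairs and 0% for the polar groups.

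At an unadjusted p under 0.05, 2 of the 5 copies passed in each comparison with the equatorial group and 0 between the polar groups. Of all 11712 genes, 1206 passed at that threshold for contralateral and 1363 for ipsilateral against equatorial pairs, and 533 between the polar groups. Zscan4c was smaller by 1.22 ± 0.32 on the log2 scale (difference contralateral minus equatorial of -1.22, limma adjusted p = 0.0835) and Zscan4b had -1.25 ± 0.37 (adjusted p = 0.152). The differences ipsilateral minus equatorial were -0.92 ± 0.33 for Zscan4c (limma adjusted p = 0.226) and -1.04 ± 0.38 for Zscan4b (adjusted p = 0.232). The medians over all genes were -0.08 and -0.13, so sisters of equatorial embryos differed slightly more across the whole table as well.

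**Figure D4:**
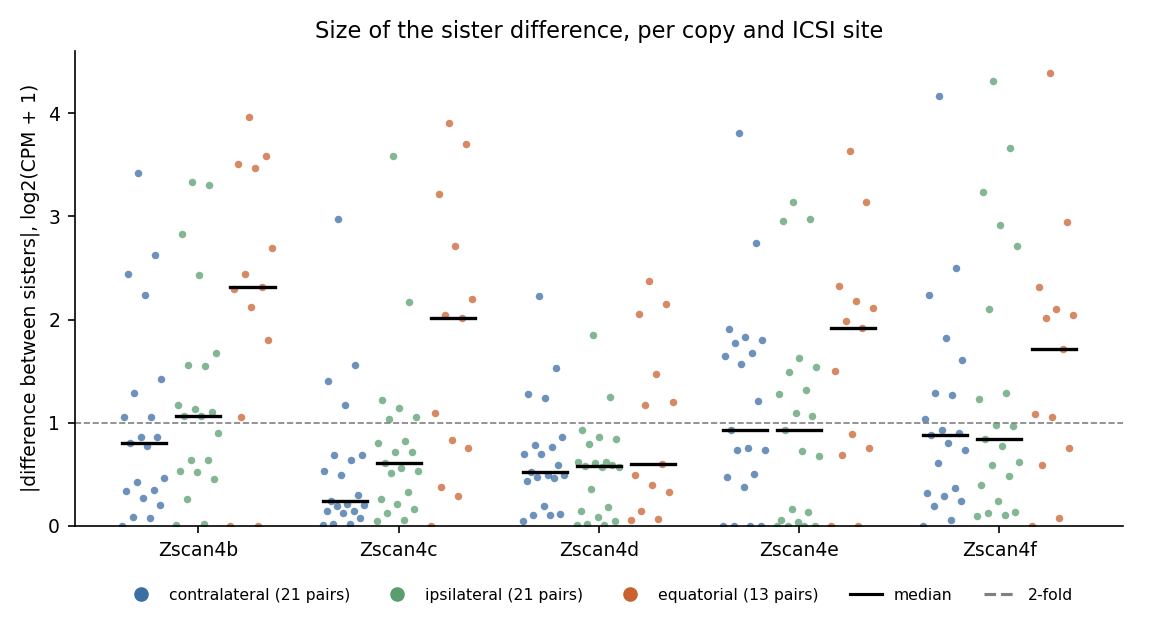
Size of the difference between sisters on the log2(CPM + 1) scale for each copy and ICSI site, 1 point per pair, with a bar at the median and a dashed line at 2-fold. The equatorial medians of Zscan4b and Zscan4c are at 2.32 and 2.01, and the medians of Zscan4d are at 0.52, 0.58 and 0.60.

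Embryos of 1 ICSI group differed in Zscan4d by more than sisters did. In edgeR's F test of the embryo terms within ICSI groups, with the sisters as the spread, Zscan4d passed (F = 3.62, edgeR adjusted p = 2.29e-05) and the other 4 copies did not, with adjusted p of 0.0722 for Zscan4c, 0.172 for Zscan4f, 0.267 for Zscan4e and 1.0 for Zscan4b. This is 1 of 5 copies, and 12.4% of all genes passed. The embryo terms include the plate, so differences between plates count in this test. On plate 1 alone Zscan4d passed as well (edgeR adjusted p = 0.000117). The intraclass correlation was taken on log2(CPM + 1) after removing the mean of each ICSI site and plate. It is the share of the remaining variation that lies between embryos, so it leaves out the plate, unlike the F test. This correlation was 0.575 for Zscan4d and 0.579 for the sum, against a median of 0.14 over 11712 genes. Of these genes 224 were higher than Zscan4d. The correlation was 0.463 for Zscan4f, 0.455 for Zscan4c, 0.433 for Zscan4e and 0.174 for Zscan4b.

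Of 20 further genes of 2-cell genome activation, 19 were tested. Higher after contralateral than after equatorial ICSI were 2 and lower were 0, a share of the list near the 7.12% of all genes called higher, and the median log2 fold change of the list was -0.04. Tdpoz3, of a family of 2-cell proteins with TRAF and BTB/POZ domains, had CPM medians of 29.2 in contralateral, 14.5 in ipsilateral and 3.35 in equatorial embryos and was higher contralaterally by 1.79 ± 0.56 (edgeR adjusted p = 0.0226). Arg2, a mitochondrial arginase, had medians of 96.4, 107.6 and 66.9 and was higher by 0.63 ± 0.21 (adjusted p = 0.0329) and, ipsilaterally, by 0.65 ± 0.21 (adjusted p = 0.0479), the 1 call of the list in that comparison, where 3.43% of all genes were called higher. Arg2 was not called in either comparison with the mitochondrial limit (0.66 and 0.69) or with depth covariates (0.39 and 0.34), nor ipsilaterally on plate 1 alone (0.66), and Tdpoz3 was not called with depth covariates (1.90). Usp17ld, a deubiquitinating enzyme, had medians of 19.2, 28.4 and 39.03, with -0.78 ± 0.29 between contralateral and equatorial (edgeR adjusted p = 0.0650).

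Among 22 known regulators of Zscan4, 7 passed for contralateral against equatorial ICSI, 6 lower and 1 higher, and 3 for ipsilateral ICSI, 2 lower and 1 higher. Those lower contralaterally were Trim28, Daxx, Kmt2d, Chaf1a, Rif1 and Tet3, and the higher was Dppa2. Trim28, a corepressor that recruits histone methylation, had CPM medians of 127.2 in contralateral, 140 in ipsilateral and 181 in equatorial embryos, with -0.63 ± 0.14 (edgeR adjusted p = 0.00106) and -0.43 ± 0.15 (adjusted p = 0.0600). Daxx, a chaperone of histone H3.3, had medians of 48.9, 46.2 and 92.5, with -0.76 ± 0.19 (edgeR adjusted p = 0.00454) and -0.82 ± 0.20 (adjusted p = 0.00571). Kmt2d, a histone methyltransferase of enhancers, had medians of 133, 157 and 252, with -0.75 ± 0.19 (edgeR adjusted p = 0.00481) and -0.69 ± 0.20 (adjusted p = 0.0209). These are 7 and 3 of 22 genes, beside 13.2% and 6.65% of all genes called in either direction, and the median log2 fold change of the list was -0.17 and -0.04. With depth covariates Daxx was called in neither comparison (-0.60 and -0.59) and Kmt2d not in the ipsilateral one (-0.60), and with the mitochondrial limit Kmt2d was not called contralaterally (-0.61). Trim28 was called ipsilaterally under 4 alternatives, with DESeq2 (-0.42), without the plate term (-0.46), on plate 1 alone (-0.62) and with all pairs (-0.46).

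Of 12 telomere and DNA methylation genes tied to Zscan4, 1 passed for contralateral against equatorial ICSI, and 0 for ipsilateral ICSI, beside 13.2% and 6.65% of all genes called in either direction. Tinf2, a shelterin protein of telomeres, had CPM medians of 135 in contralateral, 162 in ipsilateral and 181 in equatorial embryos and was lower contralaterally by 0.43 on the log2 scale (-0.43 ± 0.12, edgeR adjusted p = 0.00987). Uhrf1, which guides DNA methylation to replicated DNA, had -0.26 ± 0.12 (adjusted p = 0.145), and Acd, another shelterin protein, had 0.23 ± 0.12 (adjusted p = 0.209). Between contralateral and ipsilateral ICSI 0 genes of the 3 lists were called by edgeR, as for all genes that passed the filter on low counts.

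The genes whose levels ran most like the summed Zscan4 CPM over the 110 blastomeres were found among 10945 expressed genes by Spearman correlation, leaving out predicted genes. The highest was Zscan4-ps2, a neighbour in the cluster (0.755), which shares exon sequence with the members. It was higher than in equatorial embryos by 1.80 contralaterally (edgeR adjusted p = 0.00345) and by 1.42 ipsilaterally (adjusted p = 0.0363). The neighbours Zscan4-ps1 and Zscan4-ps3 were called in neither comparison. Zscan4-ps1, with 76.6% of its windows in no other gene, had 0.84 (edgeR adjusted p = 0.242) and 0.49 (adjusted p = 0.632). Zscan4-ps3 had 1.24 (edgeR adjusted p = 0.134) and 0.84 (adjusted p = 0.440). Given the shared sequence of Zscan4-ps2 and the way it was chosen, its calls are no separate result. After it came 4931428L18Rik (0.736), the cyclin Ccnb1 (0.697), the Mediator subunit Med31 (0.686), A730082K24Rik (0.675), the neddylation enzyme subunit Nae1 (0.673), the oocyte protein Nlrp9c (0.672), the homeobox gene Obox1 (0.670), the histone chaperone Asf1a (0.667) and the centromere protein Cenpn (0.665). The median over all genes was -0.00147. Each of the 10 had its lowest group median in equatorial embryos, as for Ccnb1 with CPM medians of 1085 contralaterally, 951 ipsilaterally and 677 equatorially. The correlation was taken over all ICSI sites, and the summed CPM was itself lowest in equatorial embryos, so the choice of these genes favours this pattern. On plate 1 alone 6 of the 10 remained among the first 10, but its 84 blastomeres are most of those used for the choice. Over the 26 blastomeres of plate 2, also part of the choice, the 10 correlations ran from 0.254 (Obox1) to 0.75 (4931428L18Rik). The blastomeres share sisters, ICSI sites and depth, so these values describe the libraries only.

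At the blastocyst stage the transcripts were not detected, but for 3 counts in a single embryo. The 38 twin libraries held 0 counts of any of the 5 copies in 43636294 counts, which allows up to 0.0688 CPM over the group for each copy. The 31 intact blastocysts held 0 counts of Zscan4b, Zscan4c, Zscan4e and Zscan4f in 22125255 counts, which allows up to 0.136 CPM. In single libraries the limit of 3 counts is higher, from 1.39 to 4.21 CPM in twins and from 2.39 to 12.8 CPM in intact blastocysts. The exception to the 0 counts was Zscan4d in 1 equatorial intact blastocyst, with 3 counts, which equals that limit. Its level was 2.61 CPM (95% Poisson interval 0.539 to 7.64, for counting error only), so the other single blastocysts were not shown to lie below it. That library had 0 counts of the 2-cell gene Zfp352 and of the oocyte genes Gdf9 and Zp3. In a whole blastocyst, fewer cells with a transcript and less transcript per cell cannot be told apart.

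**Figure D5:**
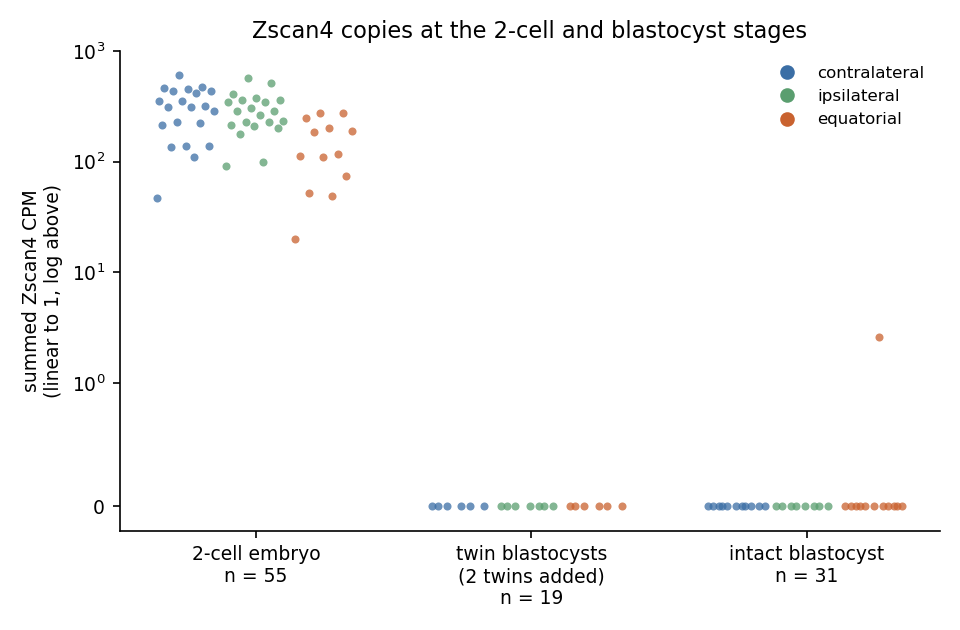
Summed Zscan4 CPM (axis linear to 1 and log above) of the 55 embryos at the 2-cell stage, the 19 twin pairs with both twins added and the 31 intact blastocysts, coloured by ICSI site. Every embryo of the 2-cell stage is at 19.9 CPM or more, and all blastocysts are at 0 but for 1 equatorial intact blastocyst at 2.61.

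Over all embryos of the 2-cell stage added, Zscan4d was at least 2854-fold higher than in twins, Zscan4c at least 589.5-fold, Zscan4f at least 336.8-fold, Zscan4b at least 131.1-fold and Zscan4e at least 66.9-fold, each against the limit of 3 counts over the group. Against intact blastocysts Zscan4c was at least 298.9-fold, Zscan4f at least 170.8-fold, Zscan4b at least 66.46-fold and Zscan4e at least 33.9-fold higher. For Zscan4d the ratio was 1447 (95% interval 496 to 7010, for counting error only). In edgeR, 4 of the 5 copies passed the filter on low counts through their 2-cell embryos alone. They were called higher than in intact blastocysts, an outcome that this way of entry fixed in advance, so the calls add no support. Of all genes, 45.9% were called higher and 77.1% in either direction. All blastocysts were on plate 2. With the 2-cell embryos of plate 2 alone Zscan4c and Zscan4d entered in the same way and were both called, with fitted log2 fold changes of 9.14 and 10.24. The paper states that part of the blastomere libraries had paired-end reads and the blastocysts single-end reads only. It also states that the paired data were cut to the first reads at a standard length. Culture differed between the stages and cannot be told apart from stage.

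With the filter on low counts 0 of the 5 copies could be compared between ICSI sites in twin or intact blastocysts, or between twin and intact blastocysts. Without the filter 1 copy, Zscan4d with its 3 counts of 1 library, entered the fits that hold intact blastocysts and was called in 0 of them.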

How the data were processed

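RNA of single blastomeres and single blastocysts was made into cDNA with the SMART-Seq Single Cell Kit, and Nextera XT libraries were sequenced. Reads were trimmed with Trimmomatic and aligned by the authors with STAR 2.7.10b without strand, on the GRCm38 genome and the annotation of GENCODE M23. The authors deposited whole-number counts per gene and library without normalization. They were equal in all entries to a second deposited matrix, in which reads with equal ends count as 1. The counts used here are therefore deduplicated in this way, and counts without this step were not compared. The libraries have no molecular identifiers, so intervals and limits cover counting error only.

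CPM and TPM were computed here, TPM with exonic lengths of GENCODE M21. A pair was kept if both blastomeres had at least 9500 detected genes, and blastocysts needed 4000. Sisters or twins were added, and the embryo was the replicate. Groups were compared with edgeR 4.0.16 (TMM, filterByExpr, robust quasi-likelihood test, Benjamini-Hochberg adjusted p under 0.05), sister differences with limma 3.58.1 on log2(CPM + 1), and DESeq2 1.42.0 was an alternative, with R 4.3.3. The scripts were tested on simulated data. Limits were 3 counts, and intervals are 95%.

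The members and gene lists were chosen with earlier results of these data known. Of each list the 3 genes with the smallest p in the 2-cell comparison with the most calls are named, and the 10 genes most correlated with the summed CPM. The labels list 150 blastomeres, equal in number for the 3 ICSI sites. Of these, 125 are in the table, and the labels say that the other 25 failed quality control. The loss was uneven, as the table holds 46 contralateral, 48 ipsilateral and only 31 equatorial blastomeres. Of the 125, 15 were not kept, which left 42, 42 and 26 in the same order. Whether this loss shaped the differences between groups was not tested. The alternatives were RLE factors, no filter, DESeq2, no plate term, plate 1 or 2 alone, all pairs, a mitochondrial limit of 2%, depth covariates, other pseudocounts, no site term, the twin with letter a alone and TMM-scaled CPM.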

Additional observations from a re-analysis of the deposited data

Results flagged for a closer look

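Of the 15 blastomeres not kept, 12 held more than 3 counts of the 5 Zscan4 copies, a signal in libraries outside the comparisons. Their summed CPM reached 627.2, in contralateral blastomere 51a, and the median over the 15 was 68.1. The 3 at 0 counts were ipsilateral. Blastomere 26a had 199797 total counts and 3020 detected genes. Blastomeres 27a and 27b are sisters, and 27b had 1376410 total counts and 11503 detected genes, while all 110 kept blastomeres, down to 360474 counts, held Zscan4d. In 27b the 2-cell genes Zfp352 and Spz1 were at 23.98 and 0 CPM, below the lowest values of 160.9 and 29.9 in the kept blastomeres, and Tcstv3 was at 33.4 CPM against a lowest value of 53.3. In its sister 27a Zfp352 and Spz1 were within the kept range, at 206.6 and 31.09 CPM, and Tcstv3 was below it, at 32.92 CPM.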

How the results depend on the processing

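Copies called between contralateral and equatorial ICSI were 2 of 5 under 6 alternatives, 3 on plate 1 alone and 4 with DESeq2, which added Zscan4b (adjusted p = 0.0119) and Zscan4c (adjusted p = 0.0381). The fits on plate 1 alone and with DESeq2 also called more of all genes, 2176 of 12864 and 2230 of 13141. The main fit called 1733 of 13141. Between ipsilateral and equatorial ICSI 1 copy, Zscan4f, was called on plate 1 alone, with all pairs and with the mitochondrial limit, and 0 with depth covariates. Over all 8 alternatives of that comparison the adjusted p ran from 0.0158 to 0.424 for Zscan4d and from 0.00147 to 0.187 for Zscan4f, and in the contralateral comparison from 0.00118 to 0.0287 and from 0.000103 to 0.0155. With plate 2 alone, 2 copies entered the comparison of the 2-cell stage with intact blastocysts, again through the 2-cell embryos. Both were called, which adds no support. No fold change of a copy between ICSI sites changed direction under any alternative. Under every alternative run, 1 copy passed for the embryo terms and 0 for the sister differences. Depth limits Zscan4b and Zscan4e most, which had 0 counts in 19 and 36 of 110 blastomeres. No paired analysis was possible because each embryo number belongs to 1 ICSI group.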
